A study of Homo sapiens with 6 samples.

Results

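The genes described here are the ESCRT machinery and the exosome release genes of HaCaT keratinocytes: 38 genes chosen by symbol, from ESCRT-0 to ESCRT-III, the VPS4 ATPases, ALIX and syntenin, the secretory RABs, the SNARE *YKT6* and the acid sphingomyelinase *SMPD1*. Each of the 38 had its own row among the 12499 genes of the deposited count table, and all 38 passed the filter on low counts. HaCaT is an immortalized human keratinocyte line. Cells were infected for 48 hours with a lentivirus that carried the *ATF7* coding sequence (LV-*ATF7*) or with a negative control lentivirus (LV-NC), and both groups were then kept in high glucose for 24 hours before poly(A) RNA was sequenced, with 3 libraries per group. No source used here states whether the 3 libraries of a group came from separate infections, so p-values measure the spread between these libraries, which may be technical.

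ESCRT complexes act one after another on endosomes. ESCRT-0 gathers ubiquitinated membrane proteins, ESCRT-I and ESCRT-II deform the membrane around them, and ESCRT-III filaments, taken apart by the ATPase VPS4, cut the bud off into the lumen of the multivesicular body. When such a body fuses with the plasma membrane, its vesicles leave the cell as exosomes. ALIX and syntenin load syndecan cargo onto the same filaments, ceramide made by sphingomyelinases can bend the membrane without ESCRT, and RAB GTPases and SNAREs carry, dock and fuse the multivesicular body. The study concerned exosomes that keratinocytes pass to macrophages, and the RNA-seq compared the donor cells.

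Total counts ranged from 16686472 to 20562768 per library, and the 38 genes had between 31 and 8740 counts in a library. *ATF7*, the overexpressed gene, was lower in the libraries labeled LV-*ATF7* (21.9, 25.7 and 28.0 CPM) than in those labeled LV-NC (50.6, 46.4 and 52.2 CPM; log2 fold change -0.98, standard error 0.12, adjusted p = 1.89e-04), so it goes against the labels. Groups are therefore named by their labels, and every direction below rests on them. In *ATF7*, 18.2% of the exon bases lie in exons of other genes on the same strand and 27.1% in exons on the opposite strand. LV-NC replicate 1 stood apart from the other LV-NC libraries (r = 0.967 and 0.969 across genes, against 0.994 between replicates 2 and 3). Of 10 keratinocyte markers, all had a row and their summed level was 1266 to 1870.1 CPM in libraries labeled LV-NC and 6216 to 6806 CPM in those labeled LV-*ATF7*, and *KRT5* made up most of the difference (266 against 3354 CPM on average). Of the 10, 6 were called higher and 1 lower, *KRT14*, a defining basal keratin (log2 fold change -2.37, adjusted p = 0.0461). *KRT14* was at 0.375, 12.5 and 11.3 CPM in LV-NC and 1.45, 1.38 and 1.82 CPM in LV-*ATF7*. Its groups overlapped, as LV-NC replicate 1 lay under every LV-*ATF7*-labeled library. Only 3 of 8 fibroblast, 1 of 6 leukocyte, 2 of 5 endothelial and 1 of 5 melanocyte markers had a row. In libraries labeled LV-NC their sums were 35.1 to 42.7, 1.51 to 1.73, 1.12 to 5.50 and 1.87 to 2.20 CPM. In those labeled LV-*ATF7* they were 17.4 to 21.8, 7.09 to 9.57, 84.6 to 89.9 and 3.42 to 6.03 CPM, with most of the endothelial sum coming from *CDH5*. The part of these differences between the groups in the results below was not tested.

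To ask how the sorting and release machinery of the donor cells differed between the groups, counts were scaled by TMM, expressed as CPM (reads of a gene per unit of library size) and compared by the quasi-likelihood F test of edgeR, and p-values were adjusted by Benjamini-Hochberg over all 12462 genes tested. *SMPD1* was the member that differed most, 20.9-fold lower in libraries labeled LV-*ATF7*. Syntenin (*SDCBP*), *CHMP5*, *YKT6*, *VPS37A*, *CHMP2B* and *CHMP4C* fell by more than 2-fold, whereas *MVB12B*, *RAB27A*, *CHMP3* and *CHMP6* rose by more than 2-fold. These 11 are 28.9% of the members, where 32.8% of all genes were called at 2-fold, and the 7 falls compare with 13.6% of all genes and the 4 rises with 19.2%. At an adjusted p under 0.05, 27 of the 38 members were called, or 71.1%, where 67.6% of all genes tested were called. Of these, 20 were lower and 7 higher by the labels (52.6% and 18.4% of members, against 32.9% and 34.7% of all genes). When 1.5-fold was required too, 18 members were called, or 47.4%, against 52.9% of all genes. Of these 18, 13 were lower (34.2% of members, 24.6% of all genes) and 5 higher (13.2% and 28.2%). The median log2 fold change of the members was -0.36 and that of all genes tested 0.00. The share of members called was thus close to that of the whole table, and among the called members the lower ones outnumbered the higher ones. In 30 of the 38 members the groups did not overlap (78.9%, against 72.7% of all genes). In bulk RNA, fewer cells of a type and less RNA per cell cannot be told apart.

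**Figure D1:**
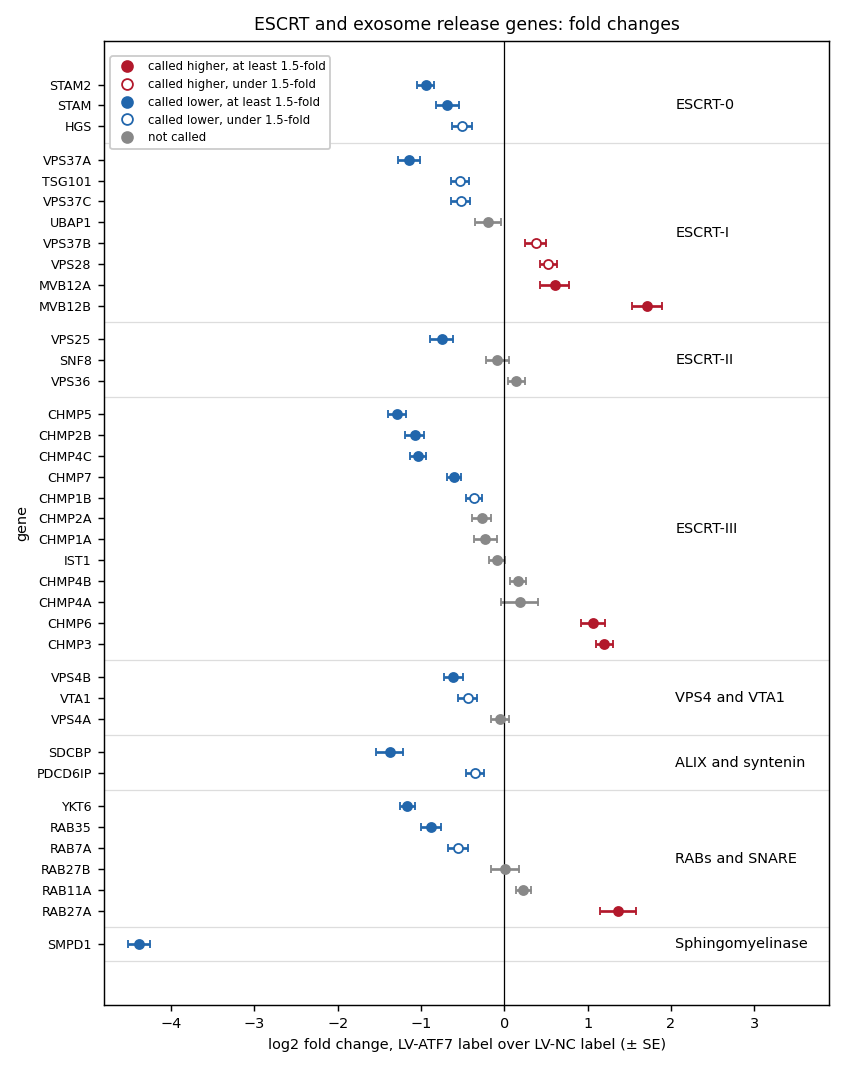
Log2 fold change (x axis, LV-*ATF7* label over LV-NC label) of the 38 members by complex (y axis), with bars for the standard error from the edgeR fit over 6 libraries. *SMPD1* lies at -4.38, far to the left of the other 37 members, which lie between -1.38 and 1.71.

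All 3 ESCRT-0 genes fell by the labels. *HGS* encodes the subunit that binds endosomal lipid and ubiquitinated cargo. Its level was 184, 239.6 and 235 CPM in LV-NC replicates 1, 2 and 3 and 145, 149.8 and 168 CPM in LV-*ATF7* replicates 1, 2 and 3 (log2 fold change -0.51, standard error 0.12, adjusted p = 0.00697). *STAM* and *STAM2* encode alternative partners of HGS. *STAM* was at 56.4, 42.7 and 43.4 CPM in LV-NC and 31.6, 30.0 and 27.2 CPM in LV-*ATF7* (log2 fold change -0.68, standard error 0.14, adjusted p = 0.00256). *STAM2* went from 67.7, 58.4 and 57.5 CPM to 33.5, 31.2 and 30.7 CPM (log2 fold change -0.94, standard error 0.10, adjusted p = 1.06e-04). In each of the 3 genes every LV-*ATF7*-labeled library lay under every LV-NC-labeled one, and the smallest drop was that of *HGS*. Among all genes, 32.9% were called lower and in 72.7% the groups did not overlap, so 3 genes say little about ESCRT-0 as a complex. In *HGS*, 23.5% of the exon bases also lie in exons on the opposite strand, and whether reads were counted by strand is not given in the sources used here.

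ESCRT-I is a rod of 4 subunits, *TSG101*, *VPS28*, a VPS37 protein and a last one that is MVB12A, MVB12B or UBAP1, and its genes moved in both directions. Of 8 genes, 4 were called higher (*MVB12B*, *MVB12A*, *VPS28*, *VPS37B*), 3 lower (*VPS37A*, *TSG101*, *VPS37C*) and *UBAP1* was not called. The called share was 87.5%, against 67.6% of all genes. Calls in both directions were not particular to ESCRT-I, as 34.7% of all genes were called higher and 32.9% lower. *TSG101*, which binds ubiquitin and the late-domain motifs that viruses and exosomal cargo use, was at 117, 146 and 143 CPM in LV-NC and 90.7, 97.3 and 92.2 CPM in LV-*ATF7*, lower in each library (log2 fold change -0.54, standard error 0.11, adjusted p = 0.00268). *VPS28*, the subunit that joins ESCRT-I to ESCRT-II, was at 52.5, 50.6 and 48.9 CPM and 72.1, 67.3 and 79.9 CPM and thus moved the other way (log2 fold change 0.53, standard error 0.0990, adjusted p = 0.00181). Both changes were under 1.5-fold, so the core pair of the complex changed in opposite directions by a similar size.

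The largest rise among the 38 genes was that of *MVB12B* (ENSG00000196814, chromosome 9 from 126326849 to 126507041 on the plus strand in GENCODE 29, GRCh38). It was rare in LV-NC, at 6.05, 3.93 and 5.38 CPM, and reached 16.6, 16.2 and 17.5 CPM in LV-*ATF7*, 3.27-fold higher with no overlap (log2 fold change 1.71, standard error 0.18, adjusted p = 8.73e-05). *MVB12A* rose from 24.7, 38.8 and 35.3 CPM to 47.0, 48.3 and 54.7 CPM (log2 fold change 0.60, standard error 0.17, adjusted p = 0.0132). Its LV-NC replicate 1 was the lowest of the 6 libraries, and without that library the log2 fold change was 0.41, under 1.5-fold. Without LV-*ATF7* replicate 3 the call of *MVB12A* was lost (adjusted p = 0.0596). In *MVB12A*, 15.0% of the exon bases lie in exons of another gene on the same strand and 12.6% in exons on the opposite strand. *UBAP1*, the third option for this position, was at 84.7, 58.5 and 57.0 CPM in LV-NC and 55.9, 60.3 and 58.2 CPM in LV-*ATF7* (log2 fold change -0.20, adjusted p = 0.294). LV-NC replicate 1 was its highest library, and the other 5 libraries lay within 55.9 to 60.3 CPM.

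Among the VPS37 genes, whose products hold the rod together, *VPS37A* fell most, from 103, 78.8 and 80.3 CPM in LV-NC to 41.7, 40.5 and 36.4 CPM in LV-*ATF7*, 2.21-fold lower (log2 fold change -1.14, standard error 0.13, adjusted p = 1.29e-04). *VPS37C* fell by less, and *VPS37B* rose, with log2 fold changes of -0.53 (adjusted p = 0.00367) and 0.37 (adjusted p = 0.0337). *VPS37B* had 30.5, 40.2 and 41.2 CPM in LV-NC and 46.3, 48.4 and 50.2 CPM in LV-*ATF7*. Its groups did not overlap, but its call was lost when any of the 3 libraries labeled LV-*ATF7* was left out (adjusted p = 0.0648, 0.0899 and 0.0986 without replicates 1, 2 and 3) and with library size alone as scaling (adjusted p = 0.138). Of its exon bases, 27.9% lie in exons of another gene on the same strand. In *VPS37A*, 11.4% of the exon bases lie in exons on the opposite strand.

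ESCRT-II bridges ESCRT-I and ESCRT-III with SNF8, VPS36 and VPS25, and only *VPS25* was called. *VPS25*, which recruits the first ESCRT-III subunit CHMP6, was at 86.7, 120.2 and 116 CPM in LV-NC and 62.3, 62.4 and 66.7 CPM in LV-*ATF7* (log2 fold change -0.75, standard error 0.13, adjusted p = 0.00138). *SNF8* was at 25.4, 25.0 and 24.4 CPM and 19.3, 24.9 and 26.2 CPM (log2 fold change -0.09, adjusted p = 0.600), and its groups overlapped. *VPS36*, the lipid- and ubiquitin-binding subunit, was at 40.7, 40.5 and 37.2 CPM and 45.8, 45.4 and 39.4 CPM (log2 fold change 0.14, adjusted p = 0.252), again with overlap. With sample quality weights in limma voom, *VPS36* was called (log2 fold change 0.21, adjusted p = 0.0119), and with library size only its value was -0.02.

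Of the 12 ESCRT-III genes, 7 were called (58.3%, against 67.6% of all genes), 5 lower and 2 higher, and among the 6 called with at least 1.5-fold were 2 rises and 4 falls. *CHMP5* fell most. Its product binds VTA1 and so meets the VPS4 ATPase. *CHMP5* (ENSG00000086065, chromosome 9 from 33264879 to 33282069 on the plus strand) was at 66.2, 75.5 and 74.3 CPM in LV-NC and 32.5, 28.5 and 27.6 CPM in LV-*ATF7*, 2.44-fold lower (log2 fold change -1.29, standard error 0.11, adjusted p = 2.71e-05). *CHMP2B*, a late subunit that recruits VPS4, was at 95.5, 100.2 and 94.2 CPM and 50.1, 48.2 and 39.2 CPM (log2 fold change -1.08, standard error 0.11, adjusted p = 8.87e-05). *CHMP4C*, the CHMP4 paralog known from the abscission checkpoint of cell division, was at 59.6, 53.5 and 51.6 CPM and 26.2, 26.6 and 27.5 CPM (log2 fold change -1.04, standard error 0.0989, adjusted p = 5.21e-05). *CHMP7*, which starts ESCRT-III assembly at the nuclear envelope, was at 90.5, 91.9 and 95.2 CPM and 58.4, 59.3 and 64.6 CPM (log2 fold change -0.61, standard error 0.0881, adjusted p = 4.69e-04). All 4 genes were lower in each LV-*ATF7*-labeled library than in any LV-NC-labeled library. They were picked by their call, and in 72.7% of all genes the groups did not overlap, so nothing is read from this. In *CHMP4C*, 13.4% of the exon bases lie in exons on the opposite strand.

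The 2 rises in ESCRT-III were *CHMP6* and *CHMP3*. *CHMP6*, the subunit that starts the filament on endosomes, was at 11.9, 9.02 and 10.9 CPM in LV-NC and 21.9, 21.8 and 23.1 CPM in LV-*ATF7* (log2 fold change 1.06, standard error 0.14, adjusted p = 2.95e-04). *CHMP3*, which caps the filament together with CHMP2 proteins, was at 29.5, 26.1 and 25.6 CPM and 59.2, 64.4 and 62.9 CPM, 2.29-fold higher (log2 fold change 1.20, standard error 0.10, adjusted p = 2.63e-05). Both rises left a clear gap between the groups, and *CHMP3* moved opposite to its partner *CHMP2B*. *CHMP3* shares 10.8% of its exon bases with the readthrough gene RNF103-CHMP3 on the same strand, and 21.5% of those of *CHMP6* lie in exons on the opposite strand.

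The other ESCRT-III genes were not called, except *CHMP1B*. *CHMP4B*, the main filament subunit, was at 202, 219 and 218 CPM in LV-NC and 224, 236 and 256 CPM in LV-*ATF7* (log2 fold change 0.16, adjusted p = 0.146). Its groups did not overlap, and with library size only its log2 fold change was -0.0013. *IST1*, which binds CHMP1 proteins and VPS4, was at 223, 203 and 189.9 CPM and 183, 191 and 205 CPM (log2 fold change -0.09, adjusted p = 0.436). *CHMP1A* was at 182, 251 and 242 CPM and 179, 185 and 211 CPM (log2 fold change -0.23, adjusted p = 0.172). In *CHMP1A*, LV-NC replicate 1 lay with the LV-*ATF7*-labeled libraries and LV-NC replicates 2 and 3 above all of them, and without replicate 1 the gene was called (log2 fold change -0.38, adjusted p = 3.14e-05). Its paralog *CHMP1B* was called lower, under 1.5-fold (log2 fold change -0.37, adjusted p = 0.00835), and 18.1% of the exon bases of *CHMP1B* lie in exons on the opposite strand. *CHMP2A* was at 59.4, 73.5 and 63.6 CPM and 55.8, 50.6 and 56.4 CPM, just short of the threshold (log2 fold change -0.27, adjusted p = 0.0568), and was called in 5 of 13 alternatives, among them the fit without LV-NC replicate 1 (log2 fold change -0.36, adjusted p = 6.53e-04). *CHMP4A* was at 2.14, 1.99 and 1.79 CPM and 1.95, 2.19 and 2.60 CPM (log2 fold change 0.18, adjusted p = 0.486). This low level is uncertain, because 68.8% of the exon bases of *CHMP4A* also lie in exons of other genes on its strand.

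The VPS4 ATPase, which pulls ESCRT-III filaments apart, has a pair of genes, of which *VPS4B* was called and *VPS4A* was not. *VPS4B* was at 113, 123 and 122 CPM in LV-NC and 86.6, 80.1 and 66.8 CPM in LV-*ATF7* (log2 fold change -0.62, standard error 0.11, adjusted p = 0.00171). *VPS4A* was at 61.6, 70.9 and 74.6 CPM and 62.8, 66.4 and 70.6 CPM with full overlap of the groups (log2 fold change -0.05, adjusted p = 0.682). The within-library difference of the pair is given with the paralogs below. *VTA1*, the cofactor that stimulates VPS4, was called lower (log2 fold change -0.44, adjusted p = 0.00742). In *VPS4A*, 21.0% of the exon bases lie in exons of another gene on its strand and 22.0% in exons on the opposite strand.

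Syntenin and ALIX form the branch of vesicle budding that carries syndecans. Syntenin (*SDCBP*) was among the most abundant members in LV-NC and had the second largest fall. It was at 309, 458 and 453 CPM in LV-NC and 164, 158 and 148 CPM in LV-*ATF7*, 2.60-fold lower (log2 fold change -1.38, standard error 0.16, adjusted p = 1.33e-04). LV-NC replicate 1 lay well under replicates 2 and 3, yet above every LV-*ATF7*-labeled library. ALIX (*PDCD6IP*), which links syntenin to CHMP4, fell by a smaller fold, with the levels 155, 187 and 189 CPM and 147, 139 and 131 CPM (log2 fold change -0.35, standard error 0.11, adjusted p = 0.0196). Its call was lost without LV-*ATF7* replicate 2 (adjusted p = 0.0688) and without LV-*ATF7* replicate 3 (adjusted p = 0.0689).

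The RAB genes moved in both directions. *RAB27A* (ENSG00000069974, chromosome 15 from 55202966 to 55319113 on the minus strand), which docks multivesicular bodies at the plasma membrane, was at 10.2, 5.56 and 7.06 CPM in LV-NC and 20.7, 19.2 and 18.6 CPM in LV-*ATF7*, 2.57-fold higher (log2 fold change 1.36, standard error 0.22, adjusted p = 7.80e-04). Its highest LV-NC library was replicate 1, and without it the log2 fold change was 1.61. *RAB27B*, the paralog that moves these bodies to the cell edge, was at 38.3, 27.8 and 27.8 CPM and 36.9, 30.6 and 27.0 CPM and overlapped fully, and its sign changed between alternatives (log2 fold change 0.0075, adjusted p = 0.972). *RAB35*, which acts in recycling and in docking of exosome-bearing endosomes, was at 174, 230.0 and 225 CPM and 110.1, 113 and 119 CPM (log2 fold change -0.88, standard error 0.12, adjusted p = 3.45e-04), and 14.8% of its exon bases lie in exons on the opposite strand. *RAB7A*, which sends late endosomes to the lysosome, was the most abundant RAB here and was also called lower (log2 fold change -0.55, adjusted p = 0.00401). *RAB11A*, the recycling endosome RAB, was at 124, 140.1 and 139 CPM and 165, 161 and 146 CPM (log2 fold change 0.23, adjusted p = 0.0605). Each LV-*ATF7*-labeled library of *RAB11A* was above each LV-NC-labeled one, but it was called in 3 of 13 alternatives only. *YKT6* (ENSG00000106636, chromosome 7 from 44200968 to 44214294 on the plus strand), a SNARE with a role in vesicle release, was at 286, 321 and 307 CPM in LV-NC and 131, 130.5 and 147 CPM in LV-*ATF7*, 2.24-fold lower (log2 fold change -1.16, standard error 0.0945, adjusted p = 2.33e-05).

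*SMPD1* encodes acid sphingomyelinase, the enzyme that cleaves sphingomyelin to ceramide in lysosomes and whose loss causes Niemann-Pick disease types A and B. The gene (ENSG00000166311) lies on chromosome 11 from 6390431 to 6394998 on the plus strand in GENCODE 29 and shares no exon base with another gene there. Raw counts were 1654, 2105 and 1943 in LV-NC replicates 1, 2 and 3 and 87, 96 and 93 in LV-*ATF7* replicates 1, 2 and 3. Normalized levels were 88.6, 110.3 and 112 CPM and 4.86, 4.89 and 5.14 CPM, a drop from 104 ± 13.2 to 4.96 ± 0.156 CPM (SD, n = 3 each). The fall on the log2 scale was -4.38 (standard error 0.14, adjusted p = 7.93e-07), the 63rd largest fall of 12462 genes, and it ranged from -4.55 to -4.36 over 13 alternatives. LV-NC replicate 1 was the lowest of its group, and still lay far above every LV-*ATF7*-labeled library.

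**Figure D2:**
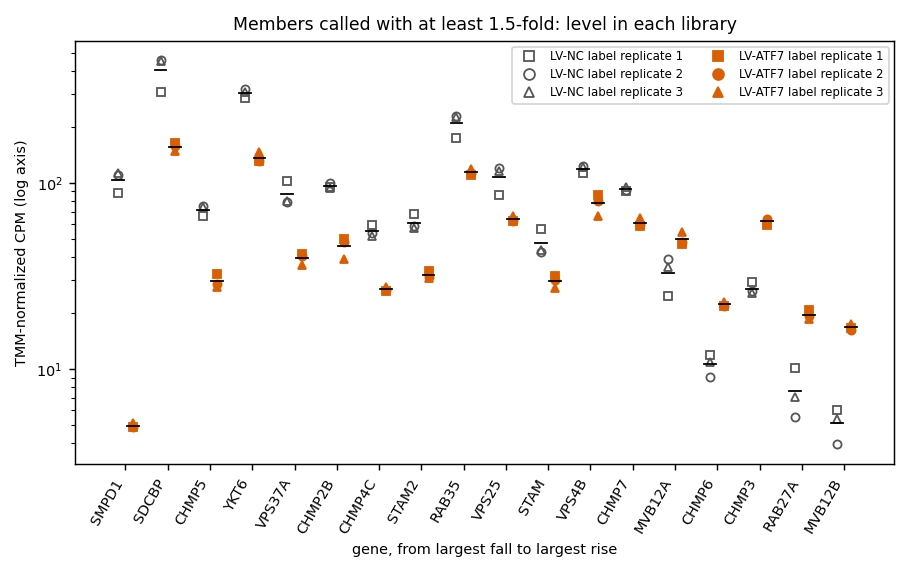
TMM-normalized CPM (log y axis) of the 18 members called with at least 1.5-fold (x axis), with open symbols for LV-NC-labeled and filled symbols for LV-*ATF7*-labeled libraries, a symbol shape per replicate number and a black line for the group mean. The 18 genes were picked by their call in these same libraries, so that their groups stand apart is no further result. Among all genes tested, the groups did not overlap in 72.7%. The gap is by far the largest in *SMPD1*, and the open square of LV-NC replicate 1 often lies off the other open symbols, as in *SDCBP*, *MVB12A* and *RAB27A*.

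Many members come in paralogous pairs, and a ratio of both genes within a library does not depend on scaling. The log2 ratio was compared in 11 pairs with a two-sided exact permutation test, in which 3 libraries against 3 cannot give a p under 0.10. In 9 of the 11 pairs the ratios did not overlap between groups, each with exact p = 0.10 (0.122 after Benjamini-Hochberg adjustment over the 11 pairs). Among all single genes, the groups did not overlap in 72.7%, the share over other gene pairs was not computed, and some pairs share a gene, so nothing is read from the count of 9. The pairs that overlapped were *CHMP1A*/*CHMP1B* (difference 0.15, exact p = 0.50) and *CHMP4A*/*CHMP4B* (difference 0.02, exact p = 0.90).

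In 3 pairs the gap between the groups was over 1 on the log2 scale. The log2 ratio of *RAB27A* to *RAB27B* was -1.91, -2.32 and -1.98 in LV-NC and -0.83, -0.67 and -0.53 in LV-*ATF7*, a difference of 1.39. That of *CHMP4B* to *CHMP4C* was 1.76, 2.03 and 2.08 in LV-NC and 3.09, 3.15 and 3.22 in LV-*ATF7*, a difference of 1.20. That of *VPS37A* to *VPS37B* was 1.76, 0.97 and 0.97 in LV-NC and -0.15, -0.26 and -0.46 in LV-*ATF7*, and its sign turned. In the VPS37 pair, LV-NC replicate 1 lay 0.79 above the other LV-NC libraries. The remaining 6 differences ran from 0.27 (*STAM*/*STAM2*) to -1.11 (*MVB12A*/*MVB12B*) in size, and the *VPS4A*/*VPS4B* ratio went from -0.79 ± 0.09 to -0.22 ± 0.27 (SD, n = 3 each).

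To set genes of one position side by side, CPM was divided by the length of the exons counted once, in kilobases, and given as a share of the set. By this measure *RAB27A* made up 26.0%, 20.9% and 25.2% of the RAB27 pair in LV-NC and 42.7%, 45.4% and 47.8% in LV-*ATF7*. *CHMP4C* made up 18.5% ± 1.83 of the CHMP4 set in LV-NC and 8.97% ± 0.363 in LV-*ATF7* (SD, n = 3 each), while the sum of the set was 159.7 ± 3.69 and 160.2 ± 10.3 CPM per kb. The CHMP4 sums overlapped between the groups, while the *CHMP4C* shares did not. *VPS37A* went from 29.6% ± 2.38 to 19.0% ± 2.18 of the VPS37 set and *VPS37B* from 14.6% ± 3.25 to 26.4% ± 0.227, with *VPS37C* at 55.7% ± 1.25 and 54.5% ± 2.38. The sum of the VPS37 set was 43.3 ± 3.41 and 30.7 ± 1.46 CPM per kb, lower in every LV-*ATF7*-labeled library. In the last position of ESCRT-I, *UBAP1* held 81.6%, 67.7% and 68.7% in LV-NC and 59.5%, 60.9% and 57.2% in LV-*ATF7*, and *MVB12B* went from 1.98% ± 0.347 to 6.01% ± 0.250. *UBAP1* remained the largest share in all 6 libraries, and the LV-NC share of replicate 1 lay far from that of replicates 2 and 3. These shares are descriptions on annotated exon length and would move with the transcripts in use. The sets hold members only. They leave out *VPS37D* (mean 1.59 CPM in LV-NC and 1.22 CPM in LV-*ATF7*) and *UBAP1L* (8.70 and 7.09 CPM), which are among the other pathway genes.

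**Figure D3:**
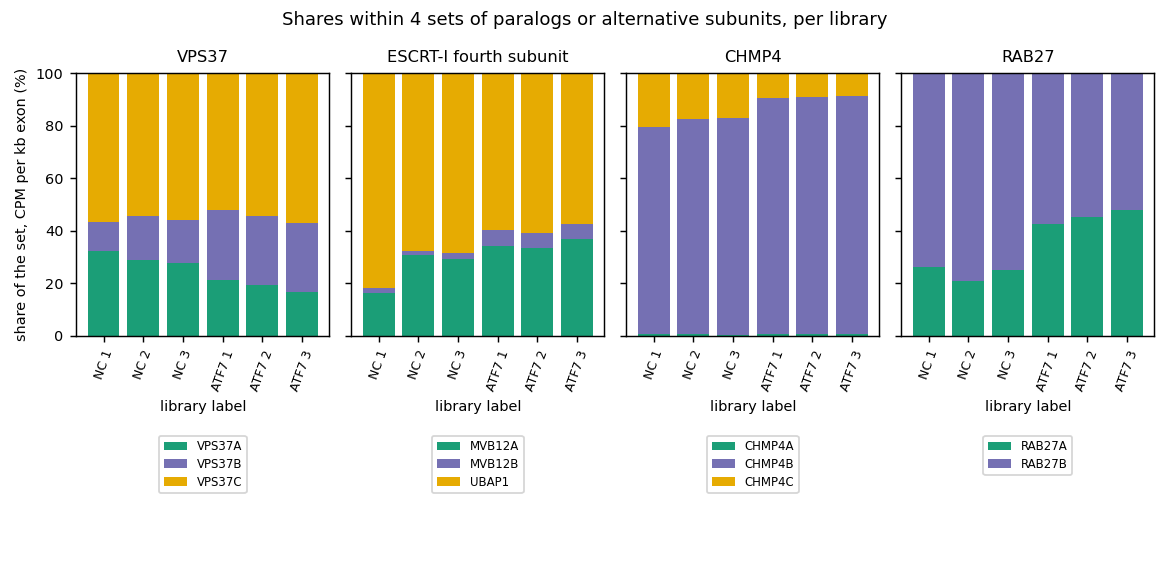
Share (y axis, percent of the summed CPM per kb of exon) of each gene in 4 sets, 1 bar per library labeled NC (LV-NC) or ATF7 (LV-*ATF7*) with its replicate number. *RAB27A* takes a larger share and *CHMP4C* and *VPS37A* smaller shares in the 3 libraries labeled LV-*ATF7* than in the 3 labeled LV-NC.

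On the same per-length scale the members spanned a wide range of levels. In LV-NC, *RAB7A* (145 CPM per kb), *CHMP4B* (129), *SDCBP* (85.2) and *YKT6* (82.2) were highest, and *MVB12B* (0.650), *CHMP4A* (0.819) and *RAB27A* (1.36) lowest. In LV-*ATF7*, *CHMP4B* (145 CPM per kb) stood above *RAB7A* (98.9), and *SMPD1* went from 37.7 to 1.81 CPM per kb, next to the lowest member. The rising genes *MVB12B*, *RAB27A*, *CHMP3* and *CHMP6* started low, at 5.02 CPM per kb or less.

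LV-NC replicate 1 differed from the mean of LV-NC replicates 2 and 3 by at least 1.5-fold in 1 of 38 members, *RAB27A*, or 2.63%, against 24.3% of all genes tested. At 1.3-fold it did so in 11 of 38 members, or 28.9%, against 42.5% of all genes, and the median size of the log2 difference was 0.23 in members and 0.32 in all genes. Both folds were chosen after the values were seen. The largest excess of this library was in *RAB27A* (log2 difference 0.69), followed by *UBAP1* (0.55), and its largest deficits were in *MVB12A* (-0.58) and *SDCBP* (-0.56). Without this library, 29 of the 38 members were called, 7 higher and 22 lower, and 19 with at least 1.5-fold. In that fit 80.1% of the 12495 genes tested were called, against 67.6% with all 6 libraries. Of all those calls 49.8% were higher, and 7059 genes were called with at least 1.5-fold.

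**Figure D4:**
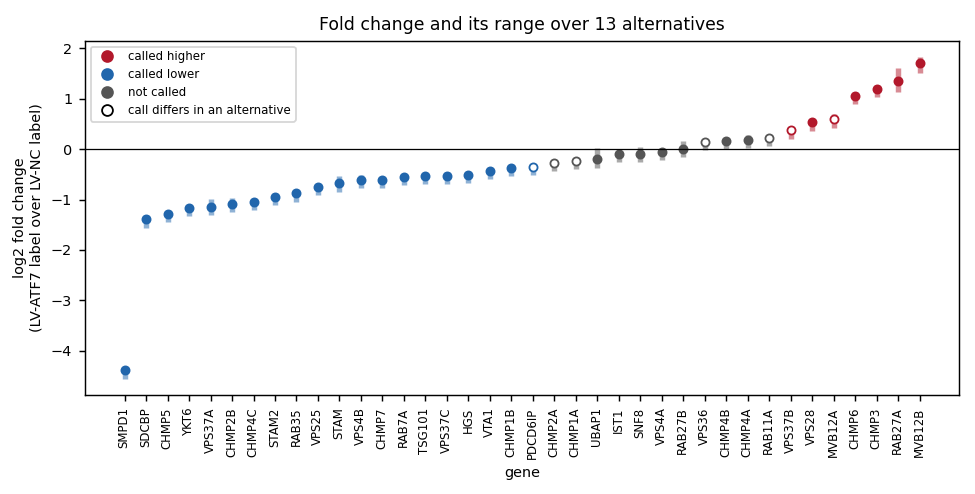
Log2 fold change of each member (points; y axis) and its lowest to highest value over 13 alternative analyses (bars), with genes ordered on the x axis. Of the 27 called members, 27 kept their direction and 24 their call in all 13, and open points mark genes whose call differed in at least 1.

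ATF7 binds the cAMP response element (CRE), so the RefSeq promoter windows of the members, from 250 bases before to 50 after the transcript start (GRCh38.p14), were searched on both strands for the palindrome TGACGTCA, for its half-site TGACG (or CGTCA, both also found inside the palindrome) and for CACGTG, the core of the element that lysosomal genes share. Windows were found for 30 of the 38 members, and the motif counts cover these alone. None was found for *VPS28*, *VPS37A*, *VPS37C*, *CHMP3*, *CHMP4C*, *CHMP6*, *CHMP7* and *SDCBP*, all of which were called. The palindrome was in 3 of these 30 and in 3.85% of the 10137 genes of the count table with a window, the half-site in 18 of 30 and in 40.4%, and CACGTG in 4 of 30 and in 12.3%. The 3 genes with the palindrome were *VPS37B*, *CHMP1B* and *UBAP1*, which did not share a direction: by the labels *VPS37B* was called higher and *CHMP1B* lower, each under 1.5-fold, and *UBAP1* was not called. The 250 bases before the start are printed for these 3, because they hold the element named for the overexpressed factor, and for *SMPD1*, the gene with the largest change, whose window holds none of the searched letters. Capitals mark the searched motifs, and a match is a description and not a binding site.
VPS37B upstream (chr12:122896125-122896374, minus strand): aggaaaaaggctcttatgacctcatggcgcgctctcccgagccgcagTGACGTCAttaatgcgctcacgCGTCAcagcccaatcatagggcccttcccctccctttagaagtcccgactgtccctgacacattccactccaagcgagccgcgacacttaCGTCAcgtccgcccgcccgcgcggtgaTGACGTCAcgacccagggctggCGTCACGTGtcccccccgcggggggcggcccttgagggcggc
CHMP1B upstream (chr18:11851163-11851412, plus strand): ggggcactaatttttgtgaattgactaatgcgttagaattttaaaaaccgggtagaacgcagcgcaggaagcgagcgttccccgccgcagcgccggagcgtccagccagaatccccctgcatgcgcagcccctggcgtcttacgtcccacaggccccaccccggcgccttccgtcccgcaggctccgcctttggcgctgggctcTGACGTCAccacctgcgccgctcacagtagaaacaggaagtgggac
UBAP1 upstream (chr9:34178793-34179042, plus strand): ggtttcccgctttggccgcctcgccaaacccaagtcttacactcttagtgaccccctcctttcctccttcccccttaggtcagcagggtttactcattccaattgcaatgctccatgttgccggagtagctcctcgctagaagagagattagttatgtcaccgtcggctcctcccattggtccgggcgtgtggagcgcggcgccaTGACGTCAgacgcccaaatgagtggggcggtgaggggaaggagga
SMPD1 upstream (chr11:6390224-6390473, plus strand): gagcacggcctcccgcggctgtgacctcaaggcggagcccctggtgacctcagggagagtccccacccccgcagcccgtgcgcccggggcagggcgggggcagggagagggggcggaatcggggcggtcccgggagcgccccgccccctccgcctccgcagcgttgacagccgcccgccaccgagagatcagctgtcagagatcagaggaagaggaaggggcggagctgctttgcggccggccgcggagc

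In *VPS37B* the palindrome stands at 203 and at 64 bases before the start, with 3 further half-sites, the last of which overlaps the CACGTG. It stands at 46 bases before the start in *CHMP1B* and at 45 bases in this start of *UBAP1*. The upstream stretch of *SMPD1* is 75.2% G and C, against 58.0% to 65.2% in the other printed stretches.

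Other genes of the pathway were drawn from 7 lists of cofactors, ligases, effectors and lipid enzymes with 84 genes, of which 80 had a row. Of the 80, 52 were called (65.0%, against 67.6% of all genes). By the labels 22 were higher and 30 lower (27.5% and 37.5%, against 34.7% and 32.9% of all genes). With at least 1.5-fold, 40 of the 80 were called, where 52.9% of all genes were. Of these 40, 20 were higher and 20 lower (25.0% of the 80 each, against 28.2% and 24.6% of all genes). The median log2 fold change of the 80 was -0.11. As a whole the lists therefore were called about as often as all genes, and the named changes below are of single genes.

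RAB27 works through effectors that tether vesicles to the membrane. Of 15 effectors and related genes of RAB27 and RAB11, 11 were called (73.3%, against 67.6% of all genes), 7 higher (46.7%, against 34.7%) and 4 lower (26.7%, against 32.9%). The largest rise under the naming rule was that of *SYTL1*, a RAB27 effector with C2 domains, at 12.2, 8.02 and 5.79 CPM in LV-NC and 48.7, 52.6 and 59.2 CPM in LV-*ATF7* (log2 fold change 2.62, standard error 0.25, adjusted p = 4.91e-05). The other synaptotagmin-like genes are named after their values were seen: *SYTL2*, *SYTL3*, *SYTL4* and *SYTL5* were called higher too, with log2 fold changes of 1.41, 2.30, 0.77 and 3.86, although *SYTL3* and *SYTL5* were rare, at most 1.79 and 5.05 CPM in any library. *SYTL3* rested on 3, 11 and 5 counts in LV-NC, and *EXPH5*, another RAB27 effector, was not called (log2 fold change 0.24, adjusted p = 0.170). For RAB35, *DENND1A*, which encodes an activator, rose from 32.0, 25.0 and 26.5 CPM to 81.7, 84.0 and 92.2 CPM (log2 fold change 1.63, standard error 0.12, adjusted p = 1.53e-05). *TBC1D10C*, of a family of RAB35 inactivators, fell from 22.9, 13.3 and 14.9 CPM to 4.07, 3.47 and 4.48 CPM (log2 fold change -2.09, standard error 0.24, adjusted p = 1.33e-04). The others of these 2 families in the list, named after their values were seen, did not share one direction: *TBC1D10B*, at 111, 111 and 112 CPM and 127, 129 and 148 CPM, was called higher (log2 fold change 0.28, adjusted p = 0.0254), *TBC1D10A* was called lower (log2 fold change -0.39, adjusted p = 0.0494), and *DENND1B* was not called (log2 fold change -0.10, adjusted p = 0.804).

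All 9 syndecans and syntenin partners with a row were called, 5 higher and 4 lower, where 67.6% of all genes were called, 34.7% higher and 32.9% lower. *SDC1*, a syndecan that syntenin binds, rose from 92.4, 94.5 and 95.7 CPM to 303, 320.3 and 373 CPM (log2 fold change 1.82, standard error 0.10, adjusted p = 4.91e-06). *SDC4*, named after its values were seen, fell, as *SDCBP* did, from 699, 570.0 and 599.9 CPM to 390.3, 394 and 432 CPM (log2 fold change -0.62, adjusted p = 0.00134). The syndecan genes thus moved in both directions. *SDCBP2*, the syntenin paralog, fell with *SDCBP*, from 6.05, 9.59 and 8.39 CPM to 1.84, 1.43 and 1.60 CPM (log2 fold change -2.30, standard error 0.24, adjusted p = 7.72e-05). Among ubiquitin ligases and adaptors, 1 of 9 was called higher and 3 lower (11.1% and 33.3%, against 34.7% and 32.9% of all genes). Together 44.4% were called, against 67.6% of all genes. The rise was that of *NEDD4*, a ligase that marks cargo for ESCRT, from 69.5, 41.8 and 43.9 CPM to 318, 272 and 238 CPM (log2 fold change 2.41, standard error 0.21, adjusted p = 3.63e-05).

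Of 7 further sphingolipid enzymes, 3 were called higher and 2 lower (42.9% and 28.6%, against 34.7% and 32.9% of all genes). Together 71.4% were called, against 67.6% of all genes. The falls were those of *SMPD3*, the neutral sphingomyelinase known for ESCRT-independent exosome formation, and *SPHK1*, a sphingosine kinase. *SMPD3* was at 5.09, 14.8 and 16.3 CPM in LV-NC and 0.502, 0.408 and 0.553 CPM in LV-*ATF7* (log2 fold change -4.62, standard error 0.52, adjusted p = 1.16e-04), and LV-NC replicate 1 was the lowest of its group. It rested on 9, 8 and 10 counts in LV-*ATF7* and dropped out when at least 10 counts in every library were required. In *SMPD3*, 10.5% of the exon bases lie in exons of another gene on the same strand. *SPHK1* was at 68.0, 124 and 121 CPM and 15.5, 18.6 and 19.4 CPM (log2 fold change -2.55, standard error 0.24, adjusted p = 4.48e-05). The other sphingomyelinase genes of the list, named after their values were seen, were not called lower: *SMPD2* was called higher, at 6.53, 6.76 and 6.95 CPM and 9.71, 10.3 and 10.4 CPM (log2 fold change 0.59, adjusted p = 0.00488), and *SMPD4*, at 145, 182 and 173 CPM and 132, 136 and 150.4 CPM, was not called (log2 fold change -0.26, adjusted p = 0.0727). Of the 12 fusion SNAREs and docking genes 2 were called higher and 6 lower (66.7% called), of the 11 RAB35 and RAB7 regulators 3 and 4 (63.6%), and of the 17 ESCRT cofactors and deubiquitinases 1 and 7 (47.1%).

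**Figure D5:**
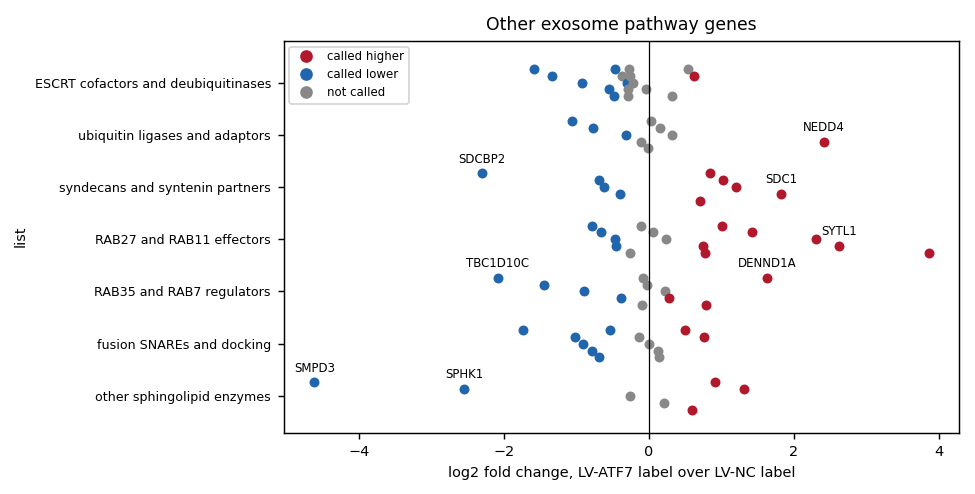
Log2 fold change (x axis, LV-*ATF7* label over LV-NC label) of the 80 other pathway genes by list (y axis), 1 point per gene, spread vertically for legibility and colored by call at an adjusted p under 0.05. The 8 genes named by rule are written beside their points, from *SMPD3* at -4.62 to *SYTL1* at 2.62, and the point farthest to the right, at 3.86, is *SYTL5*, whose mean count was under the minimum of the rule.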

How the data were processed

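Poly(A) RNA was captured with oligo(dT) beads and sequenced on an Illumina NovaSeq instrument. The authors deposited raw read counts and FPKM per gene for 6 libraries, with the build GRCh38 per the labels. Aligner, counter, annotation and strandedness are not given in the sources used here. The deposited FPKM values were not used, nor were the authors' fold changes (a ratio and its log2) and p-values of their own comparison.

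Counts were fitted with edgeR 4.0.16 in R 4.3.3 (filterByExpr, TMM, glmQLFit, glmQLFTest; the standard error is the size of the log2 fold change over the square root of F) on 12462 genes. The threshold was an adjusted p of 0.05, and 37 genes failed the filter. Exact tests used scipy 1.17.1, and scripts Python 3.11.15. Positions and exon lengths are from GENCODE 29, matched by gene identifier. The table holds no gene with under 51 counts in all. Counting error covers reads only. In a single run on simulated data the fit missed part of the changed genes, and the share of its calls on unchanged genes was above the threshold. Between libraries of one group the counts varied beyond sampling noise (chi-square per gene 2.86 to 76.2).

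The members, lists and tests were chosen with earlier results of these data known. Named genes are all 38 members, *ATF7*, and from the pathway lists the 4 largest called rises and 4 largest called falls whose groups did not overlap and whose mean count reached 50. Values of every library are given for members called with at least 1.5-fold and members not called. As alternatives, limma 3.58.1 voom with weights per library, DESeq2 1.42.0, a block for the replicate number, scaling by upper quartile or by library size alone, a minimum of 10 counts in all libraries or no filter, and leaving out single libraries were tried.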

Additional observations from a re-analysis of the deposited data

How the results depend on the processing

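Over 13 alternatives, members called numbered 25 to 31 (27 as reported), those with at least 1.5-fold 17 to 22 (18), and other pathway genes called 46 to 67 (52). The share of all genes called ran from 58.3% to 83.4% (67.6%). The highest share and the 31 members both came from limma voom with sample quality weights. A fold of at least 2 in place of 1.5 left 11 members, 7 of them lower, which the stricter fold brings about. Library size only shifted the median of all genes by -0.16 and that of the members from -0.36 to -0.52, and 42.4% of all calls were then higher in LV-*ATF7*-labeled libraries, against 51.3% with TMM. Members not called changed sign in places: *RAB27B* (-0.01 with DESeq2 and with at least 10 counts in every library, -0.16 with library size only, and -0.12 to 0.16 with one library left out), *VPS36* (-0.02) and *CHMP4B* (-0.0013) with library size only, *UBAP1* (0.02 with sample quality weights) and *SNF8* (-0.17 to 0.04 with one library left out, the latter without LV-*ATF7* replicate 1). The ratio difference of *CHMP1A*/*CHMP1B* ran from -0.0031 (without LV-NC replicate 1) to 0.25 with one library left out, and that of *CHMP4A*/*CHMP4B* was -0.07 with a prior count of 2 CPM and -0.07 to 0.12 with one library left out. The cause of these was not tested.

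Replicate numbers did not pair the libraries (correlation of deviations 0.0583, -0.0209 and 0.0649). With the replicate block, 27 members, 52 pathway genes and 65.9% of all genes were called, and *ATF7* stood at -0.99. The 9 paralog ratios had one sign within all numbers, which follows from groups that do not overlap and is no further check. *ATF7* ran from -1.15 to -0.89 over all alternatives. Counts of 31 to 8740 per member leave counting error small except for rare genes such as *CHMP4A*.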
